A study of Oryzias latipes with 27 samples.

Results

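The miR-99, miR-100 and miR-125 families were followed through gonadal differentiation of medaka (Oryzias latipes), a small fish with XX females and XY males. Members were all quantified mature miRNAs of exactly these family numbers, whatever the letter, copy or arm. They were 12 of the 437 miRNAs in the tables. Of these, 2 belonged to miR-99, 2 to miR-100 and 8 to miR-125, and 5 were 5p rows and 7 were 3p rows. Small RNA was sequenced from fish 10 days after hatching (D10), 30 days after (D30) and 120 days after (D120). Each of the 9 groups had 3 libraries, named by their replicate numbers 1, 2 and 3. WT_Fe_Ov stands for XX wild-type ovary and WT_Ma_Te for XY wild-type testis. MT_Fe_Ov is the ovary of XY fish in which DMY, the male-determining gene on the medaka Y chromosome, was disrupted by TALEN; the labels call these samples DMY knockout male gonads, and their description as ovaries of females comes from the sex and tissue labels and the study. The disrupted allele was inherited over generations; whether the fish came from 1 line or several is not given in the sources used here. At D10 the gonadal primordium was taken with adjacent tissue of the trunk, so the D10 libraries are not of gonad alone. Whether animals were pooled is not given in the sources used here. The labels call the 3 libraries of a group biological replicates, and p-values measure the spread between them.

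A miRNA hairpin gives a mature strand from each arm, named 5p and 3p. The strand loaded into Argonaute pairs with target mRNAs mainly through its seed, bases 2 to 8, and the strand from the other arm is usually degraded. miR-99 and miR-100 share a seed and form one family, whose best studied vertebrate targets include mTOR and IGF1R. miR-125 is the vertebrate relative of lin-4, the first miRNA described, which times larval development in Caenorhabditis elegans. In vertebrates the families sit in clusters in which a miR-99 or miR-100 hairpin, a let-7 hairpin and a miR-125 hairpin are transcribed together, and let-7 is itself a developmental timing miRNA. miR-10 resembles miR-99 and miR-100 with a shift of 1 base.

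Sequences are shown for miR-99a-5p and for miR-10b-5p, since they are the forward qPCR primers of the study that cover a member and its closest relative, and since reads of such relatives could be confused. Both are written 5′ to 3′ as DNA, with the seed in capitals; the bases before the one that precedes the capitals are a primer tail.
miR-99a-5p primer: gcgaACCCGTAgatccgat
miR-10b-5p primer: cgcgtACCCTGTagaaccga
The seeds share their first 4 bases. When 1 base of miR-10b-5p was then passed over, 9 of the next 10 bases were the same, against 1 of 10 without the shift. The seeds themselves differ.

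Loci are given because neighbouring hairpins can share a transcript. RefSeq annotates 7 hairpins of these families on the assembly the authors mapped to, ASM223467v1. On chromosome 14, mir125b-2 (chr14:2497043-2497150), mirlet7c (chr14:2503734-2503829) and mir99 (chr14:2504051-2504154) lie within 7112 bp, with no other annotated gene over them. A second group on chromosome 14 holds mir125b-1 (chr14:15407714-15407814), mirlet7a-4 (chr14:15411569-15411667) and mir100-2 (chr14:15412043-15412144) within 4431 bp, likewise between genes. On chromosome 13, mir100-1 (chr13:20233536-20233635) and mir125c (chr13:20246725-20246831) lie within 13296 bp, both inside the span of the lncRNA gene LOC105355476. The mir125a hairpin on chromosome 16 (chr16:14812507-14812593) has no let-7 or other family hairpin within 50000 bp. Hairpin names in RefSeq and in the quantified set differ, so a row such as miR-125b-3-3p was not assigned to a locus. The 5p rows miR-100-5p and miR-125b-5p carry no copy number and can gather reads of several hairpins.

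Library depth differed most at D30. Totals of miRNA counts were 2518868 to 8818687 at D10, 54535 to 810120 at D30 and 1054214 to 3517578 at D120. Where a miRNA had no count, a level of up to 3 counts was allowed for, or 0.340 to 1.19 RPM at D10 but 3.70 to 55.0 RPM at D30; these floors cover counting error only. Lists of miRNAs known from other tissues were summed as a guide to what else the samples may have held. Tissue content itself was not measured. The skeletal muscle list (10 rows) summed to 89201 to 156474 RPM at D10, with all rows detected, and to 757 to 8915 RPM at D30, where 3 to 5 rows were at 0 in a group. At D10 the skin and epithelium, neural and gut lists summed to 71420 to 133797, 15745 to 59992 and 13740 to 48787 RPM. Of the neural list (18 rows), D30 MT_Fe_Ov replicates 1, 2 and 3 held 93.2, 385 and 50827 RPM, so replicate 3 stood apart. In that group 9 of the 18 rows were at 0 in all libraries, replicate 3 included. Of the gut list (6 rows), D120 WT_Ma_Te replicates held 1291, 1681 and 22613 RPM, again with replicate 3 apart. Of the skin and epithelium list (5 rows), D120 WT_Fe_Ov replicates 1, 2 and 3 held 3656, 1616 and 12075 RPM. miR-202, a gonad miRNA (2 rows), summed to 112 to 473 RPM at D10. At D120 it was 270705, 241577 and 269731 RPM in WT_Fe_Ov but 634, 943 and 1105 RPM in MT_Fe_Ov and 1471, 1422 and 1157 RPM in WT_Ma_Te, where miR-202-5p was at 0 in all 6 libraries of both groups. At D30 miR-202 was 127278 to 140263 RPM in testis, 8647 to 12639 RPM in WT_Fe_Ov and 5153 to 5910 RPM in MT_Fe_Ov. By miR-202 alone the libraries labelled MT_Fe_Ov thus stood nearer to ovary at D30 and to testis at D120. At D120, however, the immune list (9 rows) summed to 22284 to 27155 RPM in both ovary groups and to 3895 to 8109 RPM in testis. By the edgeR test and threshold given below, 0.581% of 344 miRNAs differed between MT_Fe_Ov and WT_Fe_Ov at D120. Between MT_Fe_Ov and WT_Ma_Te 36.0% differed. By that measure the D120 MT_Fe_Ov libraries stood nearer to WT_Fe_Ov than to testis. For members, some of the fold changes that use the libraries that stood apart are given with and without them, and the others with all libraries. Shares, ratios and the let-7 and miR-10 rows are given with all libraries.

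All 12 members together held 2.34% to 6.75% of the miRNA counts of a library. The share was 2.69% ± 0.0814 in WT_Fe_Ov, 3.18% ± 0.226 in MT_Fe_Ov and 3.34% ± 0.893 in WT_Ma_Te at D10 (mean and SD, n = 3 each). At D30 the means were 4.71% ± 0.319, 4.22% ± 1.24 and 6.30% ± 0.477, and at D120 3.22% ± 0.0623, 3.63% ± 0.845 and 5.21% ± 0.130, in the same order. Testis had the highest share at D30 and D120, with no overlap with either ovary group. Each share depends on what else fills the total. miR-202 summed to 241577 to 270705 RPM in D120 WT_Fe_Ov and 1157 to 1471 RPM in D120 testis. At D30 it was 8647 to 12639 RPM in WT_Fe_Ov and 127278 to 140263 RPM in testis. Its part in the shares was not tested. miR-99a-5p and miR-100-5p made up most of it, at 4.77% ± 0.380 of counts in D30 testis against 2.69% ± 0.355 in D30 WT_Fe_Ov. The 7 rows from the 3p arms held at most 0.121% of a library together. By mean RPM over the 27 libraries, miR-100-5p ranked 11 of the 437 miRNAs, miR-99a-5p 31, miR-125a-1-5p 42, miR-125b-5p 51 and miR-125a-2-5p 64.

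**Figure D1:**
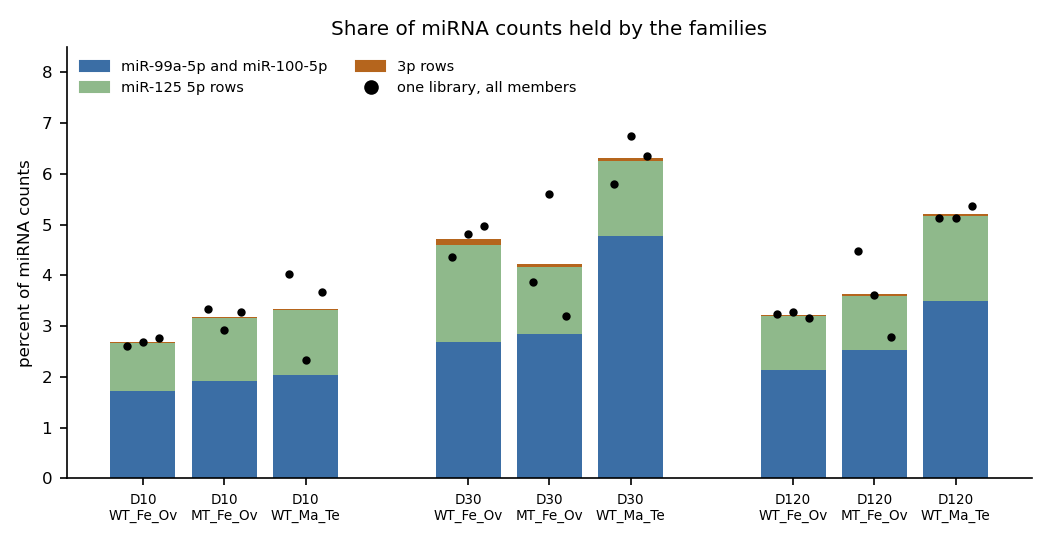
Share of the miRNA counts (percent, y axis) held by the families in each of the 9 groups (x axis). Stacked bars are means of 3 libraries for the 2 abundant miR-99/100 5p rows, the miR-125 5p rows and the 3p rows, and black points are single libraries for all members; the 3 testis libraries lie between 5.80% and 6.75% at D30 and between 5.13% and 5.36% at D120.

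The sexes were compared within each stage by edgeR's quasi-likelihood test with Benjamini-Hochberg adjustment over all miRNAs tested, and a miRNA counted as called where the adjusted p did not exceed 0.05 and the log2 fold change was 1 or more in size. At D30, 4 members were called between WT_Fe_Ov and WT_Ma_Te. miR-99a-5p and miR-100-2-3p were lower in the ovary, and miR-125a-2-5p and miR-125b-3-3p were higher. The 4 were among 10 members that passed the count filter (miR-99a-3p and miR-125a-2-3p did not), and 46.8% of the 250 miRNAs tested were called, so the members' share of 4 in 10 lay near the background. Between MT_Fe_Ov and WT_Ma_Te at D30, 3 members were called (miR-99a-5p and miR-100-2-3p lower, miR-125b-3-3p higher), against 31.6% of 250, again near 3 in 10. Between MT_Fe_Ov and WT_Fe_Ov at D30, miR-100-2-3p alone was called, against 28.4% of 250, but its lower bound of 0.997 means that no difference was detectable at this depth. miR-100-2-3p passed the count filter only through the testis libraries, so its place in the counts against testis describes a member that had to be high in testis. Its place in the count between the ovary groups rests on 5 counts in MT_Fe_Ov replicate 3. The median log2 fold change over the members was 0.20 in the first of these contrasts and -0.19 in the second, beside -0.65 and -0.29 over all miRNAs; with miRNAs at 0 set to their bounds the members' medians were 0.20 and -0.11. The contrasts of both ovary groups share the testis libraries.

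At D120 few members passed both thresholds after TMM scaling. None of the 11 tested (all but miR-99a-3p) was called between WT_Fe_Ov and WT_Ma_Te by edgeR or by DESeq2. Of the 344 miRNAs tested, edgeR called 38.1%. At an unadjusted p under 0.05 were 3 of these members and 187 of the 344 miRNAs. miR-99a-5p and miR-125a-1-3p passed the p threshold but not the fold threshold (edgeR, adjusted p = 0.0398 and 0.0368). Calls in this contrast depended on scaling, as given below for miR-99a-5p and miR-125b-1-3p. Between MT_Fe_Ov and WT_Ma_Te miR-125a-1-3p alone was called, against 36.0% of 344. Between the ovary groups 0 of 11 members were called by either tool, against 0.581% of 344 by edgeR. At an unadjusted p under 0.05 were 0 members and 16 of the 344 miRNAs. At D10, 0 of 12 members were called in each of the 3 contrasts by edgeR, against 0% of 388 miRNAs by edgeR in each. DESeq2 also called 0 members. Shares over all miRNAs at D10 and D120 are those of edgeR, and no DESeq2 share is given here. Members at an unadjusted p under 0.05 numbered 2 for WT_Fe_Ov against WT_Ma_Te (miR-100-2-3p and miR-125b-3-3p), 0 for MT_Fe_Ov against WT_Ma_Te and 0 for MT_Fe_Ov against WT_Fe_Ov. Over the 388 miRNAs tested these numbers were 76, 72 and 11 in the same order.

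**Figure D2:**
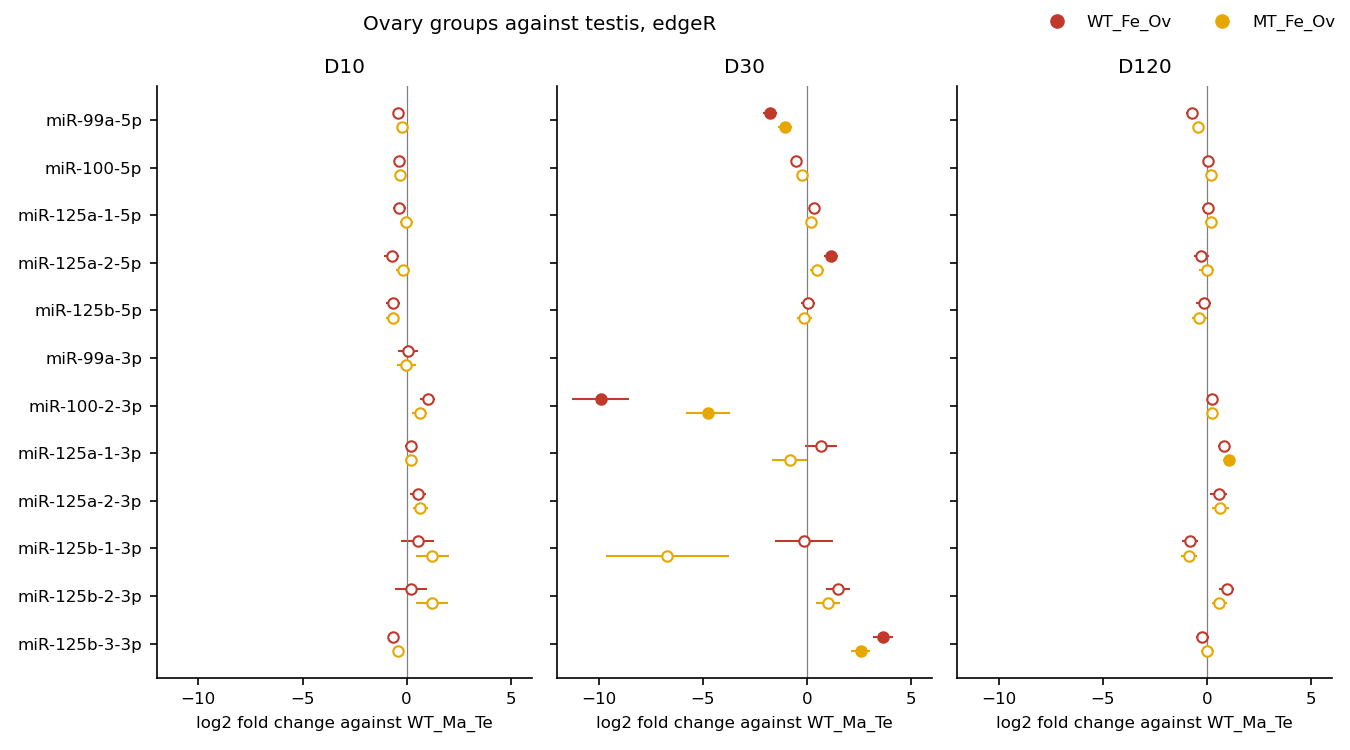
Log2 fold change against testis (x axis) of each member (y axis) at D10, D30 and D120, for WT_Fe_Ov (red) and MT_Fe_Ov (yellow). Bars are SE from edgeR, filled points passed the threshold and members that failed the count filter have no point; at D30 miR-99a-5p lies at -1.77 and -1.07 while miR-125b-3-3p lies at 3.65 and 2.59.

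miR-99a-5p, which shares its seed with miR-100-5p, differed between the sexes at D30. WT_Fe_Ov replicates 1, 2 and 3 had 2870, 3553 and 3614 RPM. MT_Fe_Ov had 3039, 4254 and 5712 RPM and WT_Ma_Te 11819, 12246 and 12273 RPM. The 3 testis libraries lay close together and above all 6 ovary libraries. Lists of other cells also differed between these groups, not all in the same direction. The stroma and smooth muscle list (9 rows, of which 9, 6 and 7 had a count in testis, WT_Fe_Ov and MT_Fe_Ov) summed to 101430 to 119228 RPM in D30 testis, 55279 to 68018 RPM in WT_Fe_Ov and 28819 to 35462 RPM in MT_Fe_Ov. The skeletal muscle list (10 rows, of which 7, 5 and 5 had a count) gave 7381 to 8915, 1100 to 1185 and 757 to 2946 RPM in the same order. For skin and epithelium the values were 1014 to 1674, 2568 to 5004 and 105 to 131 RPM, so WT_Fe_Ov was above testis. Neural rows (18, of which 10, 4 and 9 had a count) gave 2270 to 3422, 114 to 296 and 93.2 to 50827 RPM. Red blood cell rows gave 18444 to 30723, 5025 to 6433 and 7782 to 27964 RPM. Gut rows gave 547 to 841, 253 to 452 and 638 to 2815 RPM. Immune rows gave 2241 to 2738, 1711 to 2294 and 1512 to 4181 RPM. The part of these lists in the result was not tested. The level was lower in WT_Fe_Ov than in testis (log2 fold change -1.77 ± 0.34 SE, adjusted p = 0.00210) and lower in MT_Fe_Ov than in testis (log2 fold change -1.07 ± 0.34 SE, adjusted p = 0.0379). The first call held under every alternative tried. The second was lost when any 1 testis library or MT_Fe_Ov replicate 1 was left out, with RLE scaling and with DESeq2 (both -0.96) and with the 6 libraries fitted alone (-0.99), but was -1.52 (adjusted p = 0.00214) without MT_Fe_Ov replicate 3, the library with the high neural list and the highest MT_Fe_Ov value of miR-99a-5p. The part of neural tissue in that library's value was not tested.

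At D10 and D120 no contrast called miR-99a-5p. At D10 its RPM was 7733, 7750 and 8492 in WT_Fe_Ov, 8993, 8663 and 10321 in MT_Fe_Ov and 11028, 7266 and 10563 in WT_Ma_Te. Testis overlapped both ovary groups there, and MT_Fe_Ov lay just above WT_Fe_Ov. At D120 WT_Fe_Ov had 4423, 3894 and 2978 RPM, MT_Fe_Ov 6372, 4489 and 4046 RPM and WT_Ma_Te 10237, 9817 and 8298 RPM. Every testis library was again above every ovary library in RPM. After TMM scaling the WT_Fe_Ov difference did not reach the fold threshold (log2 fold change -0.73 ± 0.26 SE, adjusted p = 0.0398), whereas with library totals as the only scaling it did (log2 fold change -1.33, adjusted p = 0.00112). Over all miRNAs the median of this contrast moved from 0.04 to -0.54 with that scaling. miR-99a-5p fell from D10 to D30 in WT_Fe_Ov (log2 fold change -1.20 ± 0.29 SE, adjusted p = 0.000865) but the value was -0.92 without D10 replicate 2 and -0.90 without D10 replicate 3, short of the fold threshold. In MT_Fe_Ov the step gave -0.86, or -1.38 without D30 MT_Fe_Ov replicate 3, and in testis it gave a log2 fold change 0.16 ± 0.29 SE, adjusted p = 0.674.

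miR-100-5p was the most abundant member and changed with stage in all genotypes. At D10 WT_Fe_Ov had 8644, 9963 and 8980 RPM, MT_Fe_Ov 10324, 9091 and 10010 RPM and WT_Ma_Te 12466, 8995 and 10926 RPM. At D30 these were 20039, 24463 and 26122 RPM in WT_Fe_Ov, 23576, 31759 and 16737 RPM in MT_Fe_Ov and 31561, 38194 and 37081 RPM in WT_Ma_Te. No D30 library overlapped a D10 library. The rise passed the test in WT_Fe_Ov (log2 fold change 1.41 ± 0.23 SE, adjusted p = 9.70e-06), in MT_Fe_Ov (log2 fold change 1.41 ± 0.23 SE, adjusted p = 1.43e-05) and in WT_Ma_Te (log2 fold change 1.54 ± 0.23 SE, adjusted p = 6.89e-06), and stayed between 1.26 and 1.78 under all alternatives. D10 samples held adjacent tissue, with the muscle list at the levels given above, so stage and tissue content cannot be told apart in any D10 comparison. At D120 the RPM was 19834, 17602 and 15278 in WT_Fe_Ov, 24690, 20290 and 15751 in MT_Fe_Ov and 27021, 27499 and 22089 in WT_Ma_Te. miR-100-5p was not called between sexes at any stage; at D30 WT_Fe_Ov against WT_Ma_Te gave a log2 fold change -0.51 ± 0.24 SE, adjusted p = 0.111, and at D120 a log2 fold change 0.05 ± 0.23 SE, adjusted p = 0.874, a value that was -0.54 with library totals only.

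**Figure D3:**
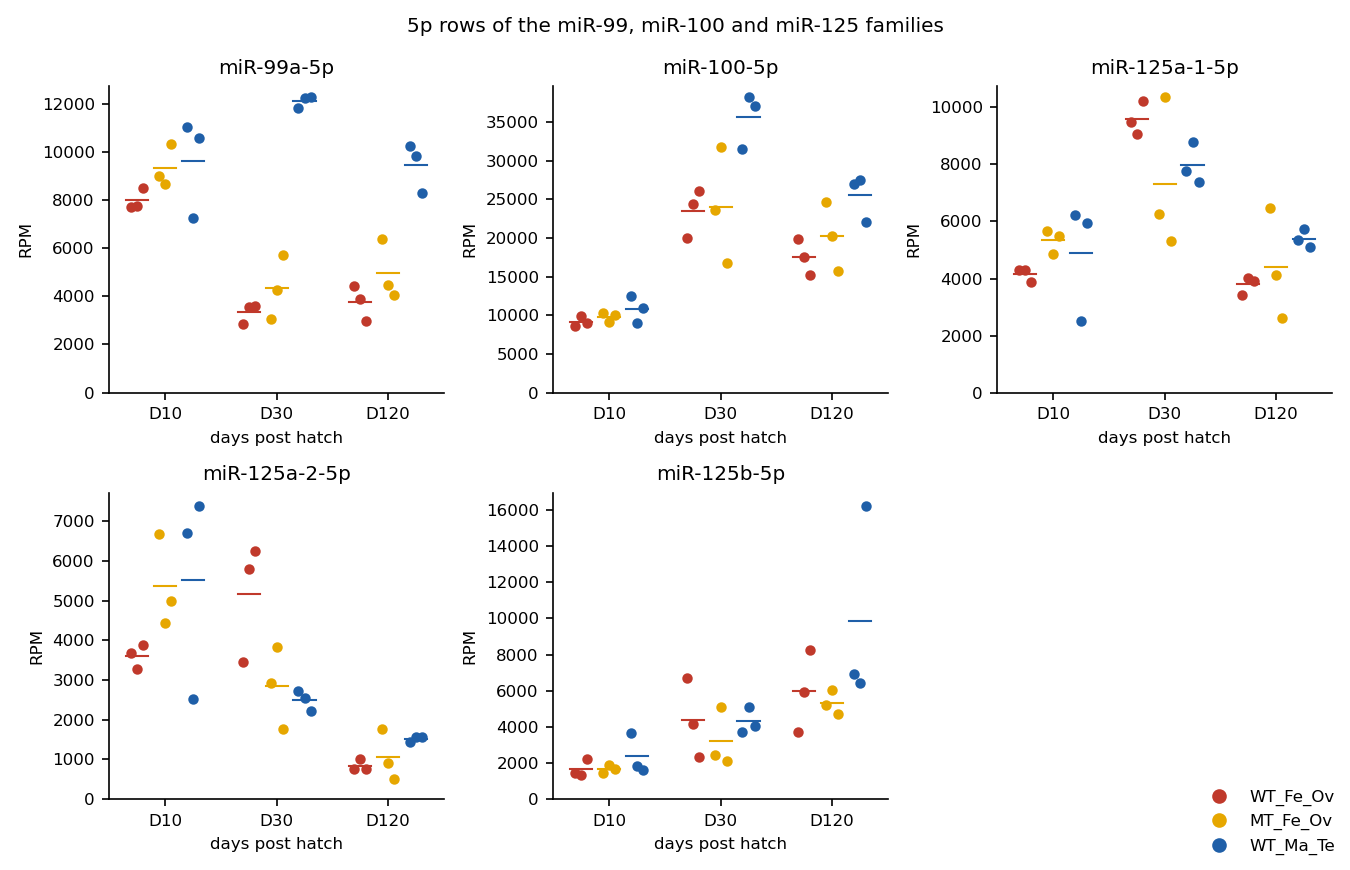
RPM (y axis, from 0) of the 5p members by stage in days post hatch (x axis), with a point for each library and a line for the mean of 3. Testis lies above both ovary groups in miR-99a-5p at D30 and D120, miR-100-5p is higher at D30 than D10 in all genotypes, and D120 WT_Ma_Te replicate 3 stands at 16232 RPM in miR-125b-5p.

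The ratio of miR-99a-5p to miR-100-5p compares members of one seed family inside a library and does not depend on scaling between libraries. How reads that could match both rows were divided is not stated, so the split between them is uncertain. At D10 it lay between 0.778 and 1.03 in all 9 libraries. At D30 it was 0.143, 0.145 and 0.138 in WT_Fe_Ov, 0.129, 0.134 and 0.341 in MT_Fe_Ov and 0.374, 0.321 and 0.331 in WT_Ma_Te. MT_Fe_Ov replicates 1 and 2 sat with the XX ovaries and replicate 3, the library with the high neural list, sat with the testes. The part of neural tissue in that library's ratio was not tested. At D120 the ratio was 0.223, 0.221 and 0.195 in WT_Fe_Ov, 0.258, 0.221 and 0.257 in MT_Fe_Ov and 0.379, 0.357 and 0.376 in WT_Ma_Te, and no ovary library reached the lowest testis library. On the log2 scale WT_Fe_Ov was lower than WT_Ma_Te by a difference of -1.26 at D30 and -0.80 at D120, and MT_Fe_Ov by -0.60 at D120. Each had p = 0.1 in an exact two-sided permutation test, the smallest that 3 libraries against 3 allow, and an adjusted p = 0.553 over the 105 such exact tests made on 12 ratios.

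miR-125a has 2 quantified copies, miR-125a-1-5p and miR-125a-2-5p, which were near equal at D10 and unequal later. miR-125a-1-5p at D10 was 4285, 4298 and 3867 RPM in WT_Fe_Ov, 5683, 4852 and 5505 RPM in MT_Fe_Ov and 6225, 2526 and 5949 RPM in WT_Ma_Te. At D30 it was 9487, 9067 and 10216 RPM, 6265, 10360 and 5299 RPM and 7770, 8783 and 7387 RPM in the same order, and at D120 3422, 4035 and 3929 RPM, 6469, 4115 and 2599 RPM and 5357, 5729 and 5115 RPM. The D30 WT_Fe_Ov libraries were above those of the same genotype at either other stage. In WT_Fe_Ov it rose to D30 (log2 fold change 1.26 ± 0.27 SE, adjusted p = 0.000200) and fell to D120 (log2 fold change -1.22 ± 0.26 SE, adjusted p = 0.000311), the fall being -0.99 when the 6 libraries were fitted alone. No sex or genotype contrast called it at any stage.

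miR-125a-2-5p was the 5p member called higher in the ovary at D30. WT_Fe_Ov had 3465, 5792 and 6250 RPM, MT_Fe_Ov 2936, 3832 and 1763 RPM and WT_Ma_Te 2716, 2539 and 2214 RPM. XX ovary lay above testis without overlap, and MT_Fe_Ov overlapped both. WT_Fe_Ov was higher than testis (log2 fold change 1.15 ± 0.33 SE, adjusted p = 0.0162), with an adjusted p = 0.0545 without WT_Ma_Te replicate 3 (edgeR, log2 fold change 1.11). At D10 the RPM was 3691, 3289 and 3880 in WT_Fe_Ov, 6692, 4440 and 4989 in MT_Fe_Ov and 6706, 2517 and 7387 in WT_Ma_Te, where replicate 2 was low in both miR-125a copies. At D120 it was 761, 1013 and 763 in WT_Fe_Ov, 1756, 918 and 518 in MT_Fe_Ov and 1447, 1558 and 1578 in WT_Ma_Te. It fell from D30 to D120 in WT_Fe_Ov (log2 fold change -2.50 ± 0.37 SE, adjusted p = 2.52e-06) and in MT_Fe_Ov (log2 fold change -1.42 ± 0.35 SE, adjusted p = 0.00156). In WT_Ma_Te the called fall was from D10 to D30 (log2 fold change -1.30 ± 0.35 SE, adjusted p = 0.00282). Steps short of the fold threshold were -0.75 from D30 to D120 in WT_Ma_Te and -0.82 from D10 to D30 in MT_Fe_Ov. No test compared the D10 to D30 step between genotypes, and the D10 libraries held adjacent tissue.

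The ratio of miR-125a-2-5p to miR-125a-1-5p was chosen after its values were seen and is given without a test. It lay between 0.765 and 1.24 at D10, between 0.289 and 0.639 at D30 and between 0.194 and 0.308 at D120, so the D10 libraries did not overlap the others. At D30 its mean was 0.539 ± 0.151 (SD, n = 3) in WT_Fe_Ov, 0.390 ± 0.0703 (SD, n = 3) in MT_Fe_Ov and 0.313 ± 0.0323 (SD, n = 3) in WT_Ma_Te. How reads that match both copies were divided is not stated, so the split between the copies is uncertain.

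miR-125b-5p, a vertebrate lin-4 relative, was not called between sexes at any stage. At D10 it was 1443, 1360 and 2213 RPM in WT_Fe_Ov, 1431, 1907 and 1655 RPM in MT_Fe_Ov and 3651, 1841 and 1593 RPM in WT_Ma_Te. At D30 the values were 6716, 4142 and 2311 RPM, 2442, 5079 and 2130 RPM and 3736, 5124 and 4040 RPM, and at D120 3732, 5909 and 8270 RPM, 5226, 6012 and 4733 RPM and 6914, 6439 and 16232 RPM, in the same order. Libraries of one group spread widely. The genotypes overlapped at D10 and D30, and at D120 WT_Fe_Ov overlapped both other groups while MT_Fe_Ov lay below testis. From D10 to D30 it rose in WT_Fe_Ov (log2 fold change 1.44 ± 0.37 SE, adjusted p = 0.00130) and in MT_Fe_Ov (log2 fold change 1.02 ± 0.37 SE, adjusted p = 0.0203), the latter short of the fold threshold without D10 MT_Fe_Ov replicate 1 (0.98), without D10 replicate 3 (0.90) and without D30 MT_Fe_Ov replicate 2 (0.85). From D30 to D120 it passed the test in testis (log2 fold change 1.13 ± 0.37 SE, adjusted p = 0.0142), but the value was 0.29 (adjusted p = 0.578) without D120 WT_Ma_Te replicate 3, 1.04 and 1.05 (not called) without D30 WT_Ma_Te replicate 1 or 3, and 0.78 with the 6 libraries alone. D120 WT_Ma_Te replicate 3 also held 22613 RPM of the gut list; its part in the result was not tested.

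Among the 3p arms, miR-100-2-3p and miR-125b-3-3p differed between the sexes at D30, in opposite directions. miR-100-2-3p was listed at 0 in the 3 D30 WT_Fe_Ov libraries. In D30 MT_Fe_Ov it had 0, 0 and 14.2 RPM, the last being 5 counts, and in D30 WT_Ma_Te 193, 416 and 297 RPM. Testis was at least 63.4-fold higher than WT_Fe_Ov by the floor of 3 counts per library. The edgeR test called it lower in WT_Fe_Ov than in testis (adjusted p = 0.000932) and in MT_Fe_Ov than in testis (adjusted p = 0.0147); it entered the D30 fit only through the testis libraries, and without any 1 of them it was filtered out. Its call between MT_Fe_Ov and WT_Fe_Ov at D30 (adjusted p = 0.0280, also lost with the replicate block at adjusted p = 0.109) rests on the 5 counts of MT_Fe_Ov replicate 3, without which the log2 fold change is 0.00; the lower bound on the ratio was 0.997, so no difference was detectable at this depth.

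At the other stages miR-100-2-3p was present in every library. At D10 it had 21.4, 12.1 and 14.5 RPM in WT_Fe_Ov, 14.1, 7.87 and 15.8 RPM in MT_Fe_Ov and 6.71, 6.35 and 8.20 RPM in WT_Ma_Te. At D120 it had 129.6, 117 and 114 RPM, 112, 126 and 131 RPM and 148, 159 and 144.8 RPM in the same order. In RPM the D120 testis libraries were still the highest, without overlap, but by less than at D30. No D120 contrast called it, and the fitted sign depended on scaling: WT_Fe_Ov against testis gave 0.25 with TMM and -0.33 with library totals. D30 WT_Fe_Ov was at least 3.36-fold lower than D10 and at least 25.2-fold lower than D120 of the same genotype. Per 1000 counts of miR-100-5p, miR-100-2-3p gave 6.12, 10.9 and 7.997 counts in D30 testis, and 0 of 45201 in D30 WT_Fe_Ov, where 3 counts would be at most 0.234 per 1000. At D120 the mean was 6.87 ± 0.498 (SD, n = 3) per 1000 in WT_Fe_Ov, 6.34 ± 1.90 (SD, n = 3) in MT_Fe_Ov and 5.95 ± 0.550 (SD, n = 3) in WT_Ma_Te. At D10 the order was the other way, with 2.48, 1.22 and 1.61 per 1000 in WT_Fe_Ov and 0.539, 0.706 and 0.750 in WT_Ma_Te, without overlap (exact permutation p = 0.1, the smallest possible). From D10 to D30 it rose in testis (log2 fold change 5.21 ± 0.51 SE, adjusted p = 3.18e-08), and from D30 to D120 it was called lower there at the edge of the threshold (log2 fold change -1.05 ± 0.43 SE, adjusted p = 0.0499). That call was lost without D30 WT_Ma_Te replicate 2 (-0.71) or 3 (-1.10), without D120 WT_Ma_Te replicate 1 (-1.30) or 2 (-1.14), and with DESeq2 and RLE scaling (both -0.86). In MT_Fe_Ov it rose from D30 to D120 (log2 fold change 3.66 ± 0.62 SE, adjusted p = 3.43e-05), in a fit where 2 of the 3 D30 libraries were at 0. Without D30 MT_Fe_Ov replicate 3, which held the 5 counts, the fitted value was 11.53 against libraries that were all at 0, so neither value sizes the rise.

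**Figure D4:**
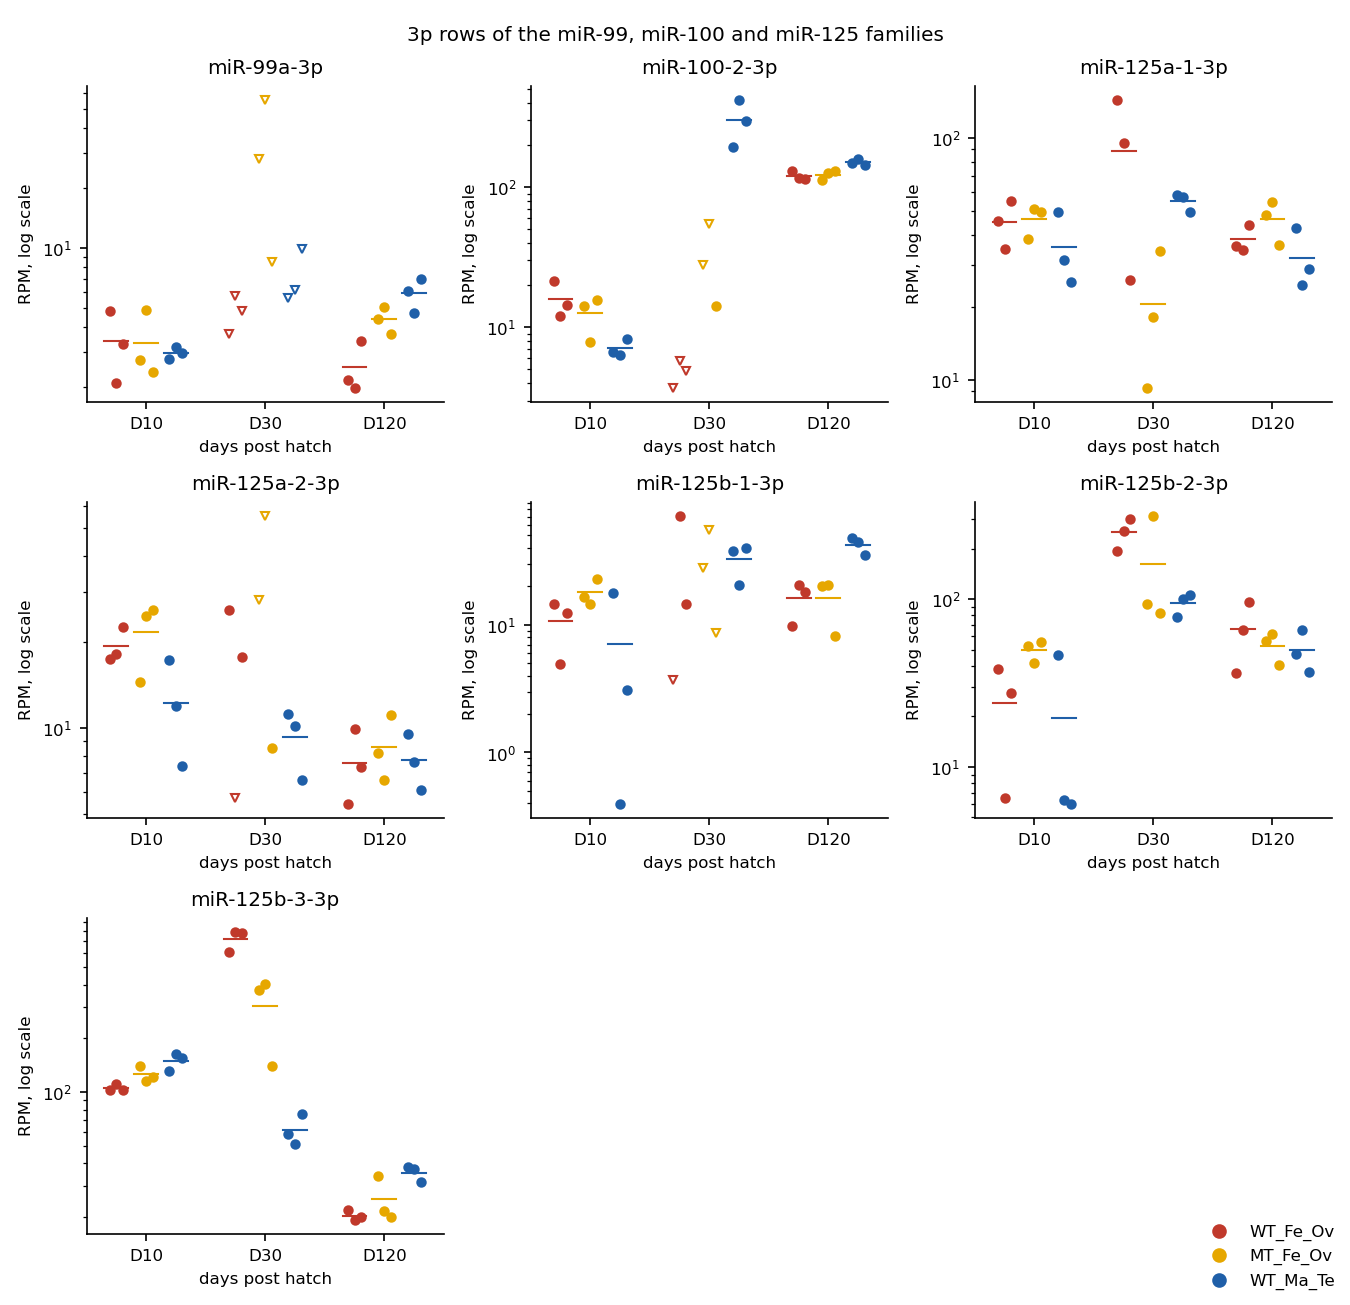
RPM on a log scale (y axis) of the 3p members by stage in days post hatch (x axis). Filled points are libraries, lines are means of 3 where no library is at 0, and open triangles mark libraries at 0, drawn at the RPM of 3 counts; miR-100-2-3p is at 0 in all D30 WT_Fe_Ov libraries and at 193 to 416 RPM in D30 testis.

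miR-125b-3-3p moved in the opposite sense at D30. WT_Fe_Ov had 609, 786 and 783 RPM, MT_Fe_Ov 373, 403 and 139.5 RPM and WT_Ma_Te 58.1, 51.0 and 75.8 RPM. Every ovary library was above every testis library, and MT_Fe_Ov lay between, with its lowest value in replicate 3. The ovary was higher in WT_Fe_Ov (log2 fold change 3.65 ± 0.47 SE, adjusted p = 0.000313) and in MT_Fe_Ov (log2 fold change 2.59 ± 0.46 SE, adjusted p = 0.00314), and both calls held under every alternative. Between the ovary groups the difference was not called (log2 fold change -1.06 ± 0.44 SE, adjusted p = 0.104), although DESeq2 called it (-1.16, adjusted p = 0.0126), as did the fit of all 27 libraries (-1.30). At D10 the RPM was 103, 112 and 103 in WT_Fe_Ov, 141, 116 and 122 in MT_Fe_Ov and 132, 163 and 154.995 in WT_Ma_Te, and at D120 21.8, 19.3 and 19.996, 34.1, 21.7 and 19.96 and 38.1, 37.0 and 31.4 in the same order. From D10 to D30 it rose in WT_Fe_Ov (log2 fold change 2.83 ± 0.33 SE, adjusted p = 7.98e-08) and in MT_Fe_Ov (log2 fold change 1.34 ± 0.32 SE, adjusted p = 0.00110) and fell in WT_Ma_Te (log2 fold change -1.504 ± 0.33 SE, adjusted p = 0.000387). From D30 to D120 it fell in WT_Fe_Ov (log2 fold change -5.03 ± 0.37 SE, adjusted p = 7.34e-11) and in MT_Fe_Ov (log2 fold change -3.52 ± 0.35 SE, adjusted p = 1.55e-08).

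Against the 5p arm of its family, miR-125b-3-3p had its highest group mean in D30 WT_Fe_Ov. Per 1000 counts of miR-125b-5p it gave 90.6, 189.7 and 339 counts in D30 WT_Fe_Ov, 152.7, 79.4 and 65.5 in MT_Fe_Ov and 15.6, 9.96 and 18.8 in WT_Ma_Te. No ovary library overlapped a testis library (exact permutation p = 0.1, the smallest possible, adjusted p = 0.553). At D10 the 9 libraries gave 36.1 to 98.4 per 1000, overlapping D30 MT_Fe_Ov. At D120 the means were 3.84 ± 1.78 (SD, n = 3), 4.78 ± 1.54 (SD, n = 3) and 4.40 ± 2.14 (SD, n = 3) in the same order. The 5p row can gather reads of several hairpins, so these ratios are not those of 1 hairpin.

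**Figure D5:**
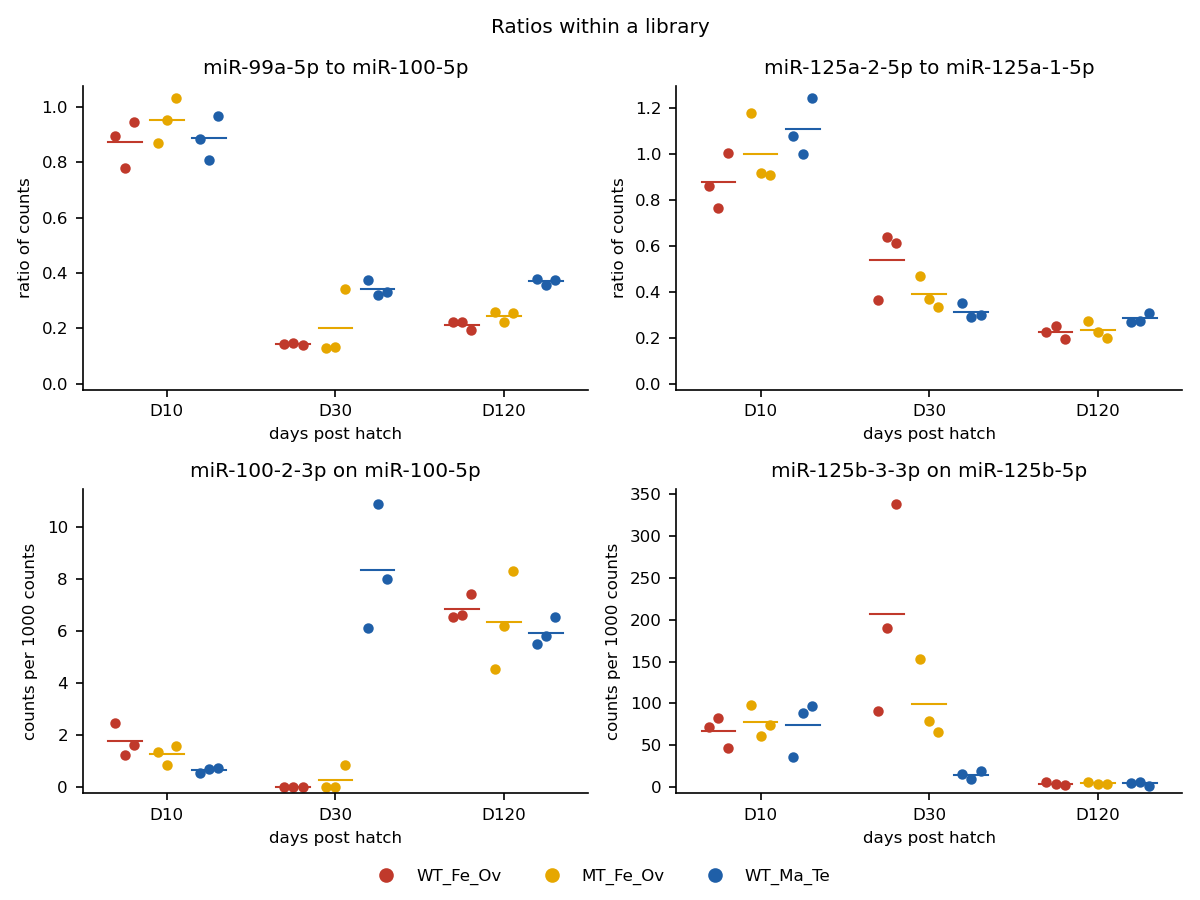
Ratios within a library (y axes, counts per count or counts per 1000 counts) by stage in days post hatch (x axis), a point for each library and a line for the mean of 3. miR-99a-5p to miR-100-5p falls from 0.778 to 1.03 at D10 to at most 0.379 later, and miR-100-2-3p and miR-125b-3-3p separate D30 WT_Fe_Ov from D30 testis in opposite directions.

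miR-125b-2-3p pointed the same way at D30. Its RPM at D30 was 193.8, 256 and 301 in WT_Fe_Ov, 93.2, 312 and 82.6 in MT_Fe_Ov and 78.7, 99.99 and 105 in WT_Ma_Te. WT_Fe_Ov lay above testis without overlap but missed the threshold (log2 fold change 1.503 ± 0.56 SE, adjusted p = 0.0518); DESeq2, RLE scaling and the fit on 6 libraries called it, as did the fit without D30 WT_Fe_Ov replicate 1 (1.76). At D10 it was 38.3, 6.53 and 27.7 RPM in WT_Fe_Ov, 52.5, 41.4 and 55.7 RPM in MT_Fe_Ov and 46.2, 6.35 and 6.04 RPM in WT_Ma_Te. At D120 it was 36.5, 66.0 and 96.1 RPM, 56.2, 61.9 and 40.7 RPM and 46.8, 65.5 and 36.6 RPM in the same order. It rose from D10 to D30 in WT_Fe_Ov (log2 fold change 3.46 ± 0.63 SE, adjusted p = 4.20e-05), in WT_Ma_Te (log2 fold change 2.18 ± 0.62 SE, adjusted p = 0.00410) and in MT_Fe_Ov (log2 fold change 1.65 ± 0.63 SE, adjusted p = 0.0276), the last lost with library totals (1.58), without D30 MT_Fe_Ov replicate 2 (1.21) and without D10 MT_Fe_Ov replicate 2 or 3 (1.54 and 1.61). It fell from D30 to D120 in WT_Fe_Ov (log2 fold change -1.87 ± 0.60 SE, adjusted p = 0.00847). At D120 WT_Fe_Ov against WT_Ma_Te was 0.94 and not called, but 1.14 and called without WT_Fe_Ov replicate 1 and 1.22 and called without WT_Ma_Te replicate 2.

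miR-125a-1-3p had a count in every library. It had only 1 count in each of D30 MT_Fe_Ov replicates 1 and 2, under their floors of 28.0 and 55.0 RPM. At D10 its RPM was 45.4, 35.0 and 55.2 in WT_Fe_Ov, 38.4, 51.2 and 49.7 in MT_Fe_Ov and 49.8, 31.4 and 25.5 in WT_Ma_Te. At D30 it was 143.2, 95.4 and 25.9, 9.32, 18.3 and 34.2 and 58.1, 57.1 and 49.4, and at D120 35.9, 34.7 and 43.9, 48.0, 54.5 and 36.2 and 42.5, 24.7 and 28.8, in the same order. The D120 groups of MT_Fe_Ov and testis overlapped in RPM. It was called at D120 in MT_Fe_Ov against testis (log2 fold change 1.05 ± 0.29 SE, adjusted p = 0.0152), but not without testis replicate 2 (0.91) or replicate 3 (0.94), without MT_Fe_Ov replicate 2 (0.91), with library totals (0.53) or with all 27 libraries in 1 fit (0.76). In WT_Fe_Ov it rose to D30 (log2 fold change 1.01 ± 0.44 SE, adjusted p = 0.0394) and fell to D120 (log2 fold change -1.08 ± 0.44 SE, adjusted p = 0.0346), and without D30 WT_Fe_Ov replicate 1 these were 0.51 and -0.56 and neither was called. Both calls were also lost without D30 WT_Fe_Ov replicate 2 (0.93 and -0.99), the first without D10 WT_Fe_Ov replicate 1 (1.02) or 2 (1.11), and the second without D120 WT_Fe_Ov replicate 2 (-0.95).

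The remaining 3p rows were scarce. miR-125b-1-3p ranged from 0 to 70.6 RPM and was at 0 in 4 libraries, the 3 of D30 MT_Fe_Ov among them, where the floor was 8.54 to 55.0 RPM. No contrast called it with all libraries, though MT_Fe_Ov was called lower than WT_Fe_Ov at D30 without WT_Fe_Ov replicate 1 (adjusted p = 0.0335) against 3 MT_Fe_Ov libraries at 0. At D120 it had 9.80, 20.5 and 18.0 RPM in WT_Fe_Ov, 20.2, 20.5 and 8.13 RPM in MT_Fe_Ov and 47.7, 44.6 and 34.9 RPM in WT_Ma_Te. Every testis library lay above every ovary library in RPM, but no D120 contrast called it after TMM scaling, whereas with library totals it was called lower in WT_Fe_Ov than in testis (-1.38). miR-125a-2-3p ranged from 0 to 25.9 RPM, was at 0 in 3 libraries and was not called. miR-99a-3p was at 0 in all 9 D30 libraries. Its RPM was 4.85, 2.10 and 3.31 in WT_Fe_Ov, 2.74, 4.87 and 2.38 in MT_Fe_Ov and 2.76, 3.18 and 2.96 in WT_Ma_Te at D10, and 2.18, 1.99 and 3.41, 4.42, 5.03 and 3.70 and 6.07, 4.74 and 6.98 at D120. edgeR called it lower at D30 than at D10 and higher at D120 than at D30 in WT_Fe_Ov and in WT_Ma_Te, but every lower bound on those ratios was under 1 (0.412 to 0.822), so no change was detectable at this depth.

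Between stages 43.6% to 74.7% of the 399 miRNAs tested were called, and the members were read against that. From D10 to D30, 9 of 12 members were called in WT_Fe_Ov (6 higher, 3 lower), against 74.7% of 399 miRNAs tested. In WT_Ma_Te 6 members were called (3 higher, 3 lower), against 60.7%, and in MT_Fe_Ov 4 (all higher), against 55.4%. From D30 to D120, 7 members were called in WT_Fe_Ov (2 higher, 5 lower), against 65.4%; 3 in WT_Ma_Te (2 higher, 1 lower), against 43.6%; and 3 in MT_Fe_Ov (1 higher, 2 lower), against 53.1%. In these counts miR-99a-3p, at the floor at D30, is 1 member of each WT_Fe_Ov and WT_Ma_Te count. Many miRNAs had no count at D30: 216 to 224 were counted in a WT_Fe_Ov library, against 401 to 422 in a D10 library, so medians over all miRNAs include many values fitted against 0. From D10 to D30 the members' median log2 fold change was 1.13 in WT_Fe_Ov, beside -3.34 over all miRNAs, and 0.51 in WT_Ma_Te, beside -0.36, and both were the same with miRNAs at 0 set to their bounds. In MT_Fe_Ov it was -0.39, beside -2.07, and 0 with the bounds. From D30 to D120 the medians were the other way, at -0.79 beside 2.02 in WT_Fe_Ov, -0.56 beside 0.78 in WT_Ma_Te and 0.31 (0 with the bounds) beside 1.44 in MT_Fe_Ov. The D10 libraries carry the muscle list at the levels given above.

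Whether a difference between groups itself changed from D30 to D120 was tested as an interaction. Between WT_Fe_Ov and WT_Ma_Te, 3 members were called (44.9% of 399 in the background). They were miR-100-2-3p, lower in the ovary at D30 and not called at D120 (log2 fold change 12.56 ± 1.18 SE, adjusted p = 2.86e-08, a fitted value against libraries at 0, not a bound), miR-125b-3-3p (log2 fold change -4.21 ± 0.47 SE, adjusted p = 1.52e-07) and miR-125a-2-5p (log2 fold change -1.75 ± 0.49 SE, adjusted p = 0.00566), both higher in the ovary at D30 and not called at D120. Between MT_Fe_Ov and WT_Ma_Te, 2 members were called (34.8%), miR-100-2-3p (log2 fold change 4.71 ± 0.76 SE, adjusted p = 5.42e-05) and miR-125b-3-3p (log2 fold change -2.69 ± 0.47 SE, adjusted p = 8.88e-05). The value for miR-100-2-3p rests on D30 MT_Fe_Ov at 0, 0 and 5 counts and was 12.58 without D30 MT_Fe_Ov replicate 3. Between MT_Fe_Ov and WT_Fe_Ov, 2 were called (21.6%). miR-100-2-3p gave -0.03 in place of -7.85 without D30 MT_Fe_Ov replicate 3, and miR-125b-3-3p gave 1.23 (adjusted p = 0.0608) in place of 1.51, the latter also lost without D120 WT_Fe_Ov replicate 3 (1.33) or D120 MT_Fe_Ov replicate 1 (1.37) and with RLE scaling (1.30). miR-99a-5p was not called in the interaction of WT_Fe_Ov and WT_Ma_Te (log2 fold change 0.72 ± 0.41 SE, adjusted p = 0.164), although without D120 WT_Fe_Ov replicate 3 it was (1.10, adjusted p = 0.0403). In the interaction of MT_Fe_Ov and WT_Ma_Te miR-99a-5p gave 0.52, and 1.04 (adjusted p = 0.0276) without D30 MT_Fe_Ov replicate 3. Without that library miR-125a-1-3p was also called in the interactions of MT_Fe_Ov with WT_Ma_Te (2.85) and with WT_Fe_Ov (3.09), but D30 MT_Fe_Ov then rests on 1 count in each of 2 libraries (9.32 and 18.3 RPM), under their floors of 28.0 and 55.0 RPM.

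The let-7 5p rows that were called against testis at D30 went in the direction opposite to miR-99a-5p. Of the let-7 hairpins, only mirlet7c and mirlet7a-4 were found beside hairpins of these families. No let-7 row was assigned to a locus, so the rows are not a set of cluster partners. In WT_Fe_Ov against testis let-7e-5p, let-7g-5p and let-7j-5p were not called (log2 fold changes -0.01, 0.74 and -0.12). Of all miRNAs tested, 46.8% and 31.6% were called in the D30 contrasts of WT_Fe_Ov and MT_Fe_Ov against testis. At D30, 7 of 10 let-7 rows were higher in WT_Fe_Ov than in testis and 9 of 10 in MT_Fe_Ov, with 0 lower in either. let-7c-2-5p had 7332, 5500 and 5927 RPM in D30 WT_Fe_Ov, 4316, 4107 and 11128 RPM in MT_Fe_Ov and 1546, 1308 and 1318 RPM in WT_Ma_Te, and the ovary and testis groups did not overlap. MT_Fe_Ov replicate 3, with the high neural list, had the highest value. It also had the highest D30 MT_Fe_Ov values of let-7a-3-5p, let-7e-5p, let-7g-5p (66610 RPM), let-7i-5p and let-7j-5p (27896 RPM). The other rows did not follow. Its let-7b-5p (9006 RPM), let-7d-5p (15430 RPM) and let-7h-1-5p (3363 RPM) were the lowest of that group, and its let-7a-2-5p lay between. The part of neural tissue in that library's let-7 values was not tested, and the let-7 counts for MT_Fe_Ov are given only with this library included. Between D10 and D30, 10 let-7 rows rose in WT_Fe_Ov, 8 in WT_Ma_Te and 10 in MT_Fe_Ov. Of the 399 miRNAs tested over this step, 74.7%, 60.7% and 55.4% were called in the same order, in either direction. The D10 libraries held adjacent tissue, so stage and tissue content cannot be told apart in any count over this step. Of the 7 miR-10 rows edgeR called 7 lower over the same step in WT_Fe_Ov, 7 in WT_Ma_Te and 6 in MT_Fe_Ov. Not all of these were detectable falls, since miR-10b-2a-3p in testis (mean 5.13 RPM at D10) and miR-10c-3p in MT_Fe_Ov (17.4 RPM) lay under the mean D30 floors of 7.21 and 30.5 RPM. miR-10b-5p went from 11692, 19205 and 17594 RPM to 1311, 1381 and 858 RPM in WT_Fe_Ov. In the D30 sex contrast of WT_Fe_Ov against WT_Ma_Te 3 of the 7 miR-10 rows were tested and 0 were called by edgeR, with 0 at an unadjusted p under 0.05. At D30 edgeR called miR-10b-5p lower in MT_Fe_Ov than in testis (-1.35, adjusted p = 0.0182) and than in WT_Fe_Ov (-1.39, adjusted p = 0.0155). It was 1 of 3 rows tested in each, beside 31.6% and 28.4% of 250 miRNAs. At D120 miR-10d-5p was called lower than testis in WT_Fe_Ov (-4.31) and in MT_Fe_Ov (-3.90). It was 1 of 4 rows tested in each, beside 38.1% and 36.0% of 344.

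Likeness of pattern was described by Pearson's r of log2(RPM + 1) over the 27 libraries, among other miRNAs with a mean of at least 100 RPM. The libraries share their 3 stages and their scaling, so r is a description. Nearest to miR-100-5p were miR-15c-5p (r = 0.897), miR-30e-1-3p (0.873), let-7e-5p (0.863), miR-25a-3p (0.862) and miR-202-3p (0.855). Nearest to miR-99a-5p were miR-135c-5p (0.819), miR-135a-2-5p (0.775), miR-137-2a-3p (0.764), miR-137-1-3p (0.754) and miR-140-5p (0.707). For miR-125b-5p they were miR-16a-5p (0.848), miR-30c-2-5p (0.832), miR-16c-5p (0.824), miR-15c-5p (0.741) and miR-126b-3p (0.739). With Spearman's rank correlation 3, 2 and 4 of the 5 named miRNAs, in that order of members, were again among the nearest 5. Adding 10 RPM in place of 1 was also tried. Over both alternatives the shared number stayed within 1.5 times of 5 in 2 cases and was lower in 4, so the lists depend on the method.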

How the data were processed

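Size-selected small RNA was sequenced in 27 libraries of gonad, which at D10 was taken with adjacent tissue. The authors mapped clean reads to ASM223467v1 with the miRDeep mapper and counted reads on FishmiRNA mature miRNAs; treatment of reads matching several miRNAs is not stated. The deposited counts are whole reads per miRNA, not normalized. The deposited RPM values are those counts divided by the library's summed miRNA counts, times 1000000; recomputation differed by at most 4.97e-05 RPM. Replicate pairs differed beyond sampling noise (27 pairs, lowest chi-square per degree of freedom 20.3).

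Counts were tested with edgeR 4.0.16 in R 4.3.3 (quasi-likelihood F test, TMM scaling, a filter of 10 or more counts in 3 or more libraries fitted, Benjamini-Hochberg adjustment over all miRNAs tested). Differences between groups of a stage used the 9 libraries of that stage, stage contrasts and interactions all 27. The alternatives were DESeq2 1.42.0, RLE scaling, library totals only, other filters and thresholds, other sample sets, a replicate block and leaving out each library. Ratios printed per library and their means are plain ratios of counts. For the log2 differences and the exact permutation tests on them, 0.5 counts were added to numerator and denominator. The code was tested on simulated counts. Values and plots were made in Python 3.11.15 (scipy 1.17.1, pandas 2.3.3, numpy 2.4.6, matplotlib 3.10.9).

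Every member is named with its range; members with a mean of at least 1000 RPM in a group, or called in a contrast, have a value per library. The members, the tissue lists and the tests were chosen with earlier results of these data known. Same-numbered libraries of a stage correlated at -0.245 to 0.195 (27 pairs), so the numbers were not treated as pairs.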

Additional observations from a re-analysis of the deposited data

Results flagged for a closer look

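Members are listed here because an interaction test (edgeR, adjusted p of at most 0.05) found that a difference between groups changed from D30 to D120. No explanation was tested. For WT_Fe_Ov against WT_Ma_Te the change on the log2 scale was 12.56 for miR-100-2-3p, -4.21 for miR-125b-3-3p and -1.75 for miR-125a-2-5p. For MT_Fe_Ov against WT_Ma_Te it was 4.71 for miR-100-2-3p and -2.69 for miR-125b-3-3p. For the pair of ovary groups (MT_Fe_Ov minus WT_Fe_Ov) the changes were -7.85 for miR-100-2-3p and 1.51 for miR-125b-3-3p, neither of which was called without D30 MT_Fe_Ov replicate 3, the library with 50827 RPM of the neural list. The first 5 of these values kept their direction and their call under every alternative in which they were tested. The values 12.56 and -7.85 for miR-100-2-3p are fitted against D30 WT_Fe_Ov libraries at 0, and 4.71 rests on D30 MT_Fe_Ov libraries with 0, 0 and 5 counts. Without D30 MT_Fe_Ov replicate 3 it was 12.58, so none of these values sizes the change of miR-100-2-3p. Groups of 3 libraries are too small for a test of single outlying libraries, so none was made.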

How the results depend on the processing

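Of the counts of members called, 242 kept within 1.5 times of the reported count, 9 were higher and 25 lower; of single fold changes, 636 kept direction and call, 68 were weaker and 1 turned; and of shares, 111 moved by under 1 SD and 33 by more. At D30, WT_Fe_Ov against WT_Ma_Te called 4 members, and 2 to 5 when 1 library was left out. MT_Fe_Ov against WT_Ma_Te called 3, or 1 at an adjusted p of 0.01, and 1 to 3 with 1 library left out. MT_Fe_Ov against WT_Fe_Ov called 1, but 2 with DESeq2, 3 with all 27 libraries, 0 with the 6 libraries alone, 0 at an adjusted p of 0.01 and 0 to 1 with 1 library left out; here miR-100-2-3p went from 5.16 to 0.00 without D30 MT_Fe_Ov replicate 3 (0.00 to 5.76 with 1 library left out), since no count was left in either group. At D120, WT_Fe_Ov against WT_Ma_Te called 0, but 2 with library totals, 2 with no minimum fold change and 0 to 1 with 1 library left out, and MT_Fe_Ov against WT_Ma_Te called 1, but 0 with all 27 libraries, 0 at an adjusted p of 0.01 and 0 to 1 with 1 library left out. MT_Fe_Ov from D10 to D30 called 4, or 2 at an adjusted p of 0.01, and 2 to 6. WT_Fe_Ov from D30 to D120 called 7, or 4 with the 6 libraries alone, and 6 to 7. WT_Ma_Te from D30 to D120 called 3, or 5 with the 6 libraries alone, 1 at an adjusted p of 0.01, and 1 to 4. The interaction of MT_Fe_Ov and WT_Fe_Ov called 2, or 1 with RLE scaling and 1 at an adjusted p of 0.01, and 1 to 3; that of MT_Fe_Ov and WT_Ma_Te called 2, and 2 to 4. The causes were not tested. Depth limits the D30 3p values, with floors up to 55.0 RPM.

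Same-numbered libraries of a stage showed no pairing (27 correlations, -0.245 to 0.195, 4 over 0.1). With the replicate block, the D30 count of MT_Fe_Ov against WT_Fe_Ov went from 1 to 0.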
